A study of Mus musculus with 16 samples.

Results

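The genes described here are 8 components of the perineuronal net, chosen by symbol from a table of 18424 genes: the chondroitin sulfate proteoglycans of the lectican family Acan, Bcan, Ncan and Vcan, the link proteins Hapln1 and Hapln4, the glycoprotein gene Tnr, and Ptprz1, which encodes a receptor phosphatase and its secreted proteoglycan form. Each symbol matched 1 row. RNA was sequenced from the medial prefrontal cortex of 16 male C57BL/6N mice at postnatal day 120, in 4 groups of 4, set by genotype (WT or HT) and early treatment (Veh or Flx). HT mice carried 1 copy of a protein-truncating Arid1b allele from a single CRISPR/Cas9-made line (C57BL/6N-Arid1b em1Tcp), and WT mice carried none; the Arid1b protein belongs to the SWI/SNF complexes that remodel chromatin. All dams drank water with 0.2% saccharin while their pups were between postnatal days 3 and 21, and in the Flx groups that water also held 0.1 mg per ml fluoxetine, a selective serotonin reuptake inhibitor that reached the pups through milk. The drug was therefore given per dam, the labels do not say which mice shared a dam, and all mice had been on plain water from weaning. Each mouse gave 1 library.

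Perineuronal nets are lattices of extracellular matrix that enclose the cell body and proximal dendrites of certain neurons, above all parvalbumin-expressing interneurons of the cortex. A hyaluronan backbone carries lecticans, link proteins fasten the lecticans to the hyaluronan, and tenascin-R crosslinks the far ends of the lecticans. Nets form late in postnatal development and are known for limiting plasticity in the mature cortex. Their parts come from several cell types, with much of the matrix supplied by glia. In bulk tissue, fewer cells of a type and less RNA per cell cannot be told apart.

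Values are normalized read counts, that is, estimated reads per gene divided by a normalization factor of the authors. Their totals ran from 92.8% to 104% of the mean, which follows from the normalization, and the sequencing depth is unknown. As a check of the genotype labels, Arid1b had 1795 ± 160 normalized reads in HT-Veh beside 2368 ± 432 in WT-Veh, and 1636 ± 61.0 in HT-Flx beside 2159 ± 233 in WT-Flx (SD, n = 4 each). Over both treatments it differed by -0.39 between HT and WT as a log2 value (SE 0.082, adjusted p = 0.124 in limma), and since reads of the truncating allele can still be counted, this check is partial. A set of 10 markers of the olfactory bulb, a region next to the frontal cortex and outside the labelled tissue, stood high in 5 libraries. Their mean log2(value + 1), called the bulb score here, was 9.21 in WT-Veh replicate 1, 6.94, 7.49 and 8.76 in WT-Flx replicates 1, 2 and 4, and 7.37 in HT-Veh replicate 4. The remaining 11 libraries scored between 3.55 and 4.58. The markers summed to 274 to 10784 normalized reads in WT-Veh and 438 to 8219.6 in WT-Flx, and to 296 to 3162 in HT-Veh and 251 to 396 in HT-Flx. Eomes was listed at 0 in 1 library and Barhl2 in 5. Cortical tissue was present in all: 6 markers of cortical glutamatergic neurons summed to at least 146308 normalized reads in every library. The results that rest on the 5 bulb-rich libraries are given also without them or with the bulb score in the fit.

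Per kilobase of the longest coding transcript, Bcan, which encodes the brain-specific lectican brevican, had the highest level, at 1826 ± 153 normalized reads per kilobase (SD, n = 16). Ptprz1 followed at 1020 ± 136, Ncan, the gene of neurocan, at 960.1 ± 99.1, Hapln4 at 759 ± 135 and Tnr at 492 ± 107. The ranges of each of these last 4 genes overlapped that of its neighbour in this order, whereas the lowest Bcan library, at 1573, lay above the highest Ptprz1 library, at 1229. Hapln1 had 129 ± 29.8 normalized reads per kilobase and Vcan, the gene of versican, 65.2 ± 15.6, with overlapping ranges. Acan, the gene of aggrecan, a lectican known as a hallmark of nets around parvalbumin interneurons, was lowest at 13.2 ± 4.88, and its highest library, at 25.2, lay below the lowest of Vcan, at 43.7. The order depended on which transcript sets the length. With the median length of each gene's coding transcripts in place of the longest, Tnr was at 2281 and Vcan at 353 normalized reads per kilobase, since both genes have short coding transcripts besides their long ones, while Acan was again lowest at 19.5.

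**Figure D1:**
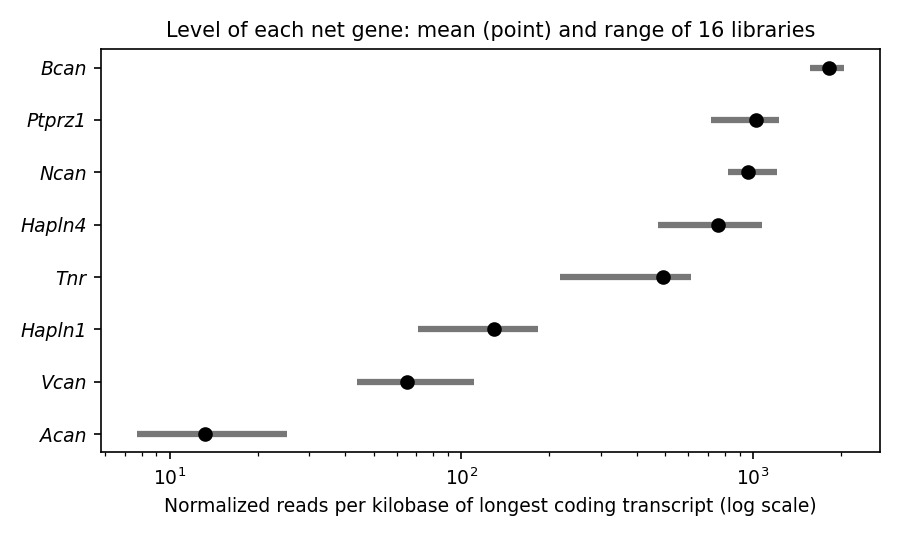
Mean level (point) and range (bar) of each perineuronal net gene over the 16 libraries, in normalized reads per kilobase of the longest coding transcript on a log scale. Bcan lay highest at 1826 and Acan lowest at 13.2, and neither range overlapped that of its neighbour.

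Each of the 4 lecticans lies beside a gene of a link protein in the GRCm38 annotation, with 0 coding genes between them. Ncan (chr8:70093085-70120873) and Hapln4 (chr8:70083457-70090862) are 2.2 kb apart and run in opposite directions, and Vcan (chr13:89655312-89742509) and Hapln1 (chr13:89539796-89611652) are 43.7 kb apart, also in opposite directions. Bcan (chr3:87987531-88000230) lies 21.5 kb from Hapln2, and Acan (chr7:79053483-79115099) lies beside Hapln3. Tnr (chr1:159523769-159931729) and Ptprz1 (chr6:22875502-23052916) have no such partner in this set. Over the 16 libraries, without adjustment for group or bulb score, the log2 values of the neighbours Ncan and Hapln4 had a correlation of r = 0.57, and those of Vcan and Hapln1 one of r = 0.46. After the 4 group means and the slope on the bulb score had been taken out, these were 0.14 and 0.18. Pairs of members on different chromosomes spanned the unadjusted values, from r = -0.63 for Bcan with Tnr to r = 0.67 for Ncan with Tnr.

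RefSeq promoters of GRCm38.p6, covering 250 bases before and 50 after each start, were found for 7 of the 8 genes, all but Hapln4. They differed widely in CG content. Acan had 31 CG pairs in its 300 bases, a number that 10.6% of all 32851 promoters of that length reached, and Ptprz1 had 29 and Bcan 24. Vcan had 12 and Ncan 9, beside a median of 7 over all promoters, and Tnr and Hapln1 had 3 each, a number that 76.7% of promoters reached. TATAAA on either strand was found in 1 of the 7, that of Ncan, and in 13.6% of all promoters. The promoters of Acan (chr7:79052976-79053275, plus strand) and Tnr (chr1:159523519-159523818, plus strand) are shown because these genes moved in opposite directions with the bulb score, as described further on, and because they have the most and, with Hapln1, the fewest CG pairs of the 7. Whether CG content goes with these directions was not tested. Capitals mark each CG pair.
Acan: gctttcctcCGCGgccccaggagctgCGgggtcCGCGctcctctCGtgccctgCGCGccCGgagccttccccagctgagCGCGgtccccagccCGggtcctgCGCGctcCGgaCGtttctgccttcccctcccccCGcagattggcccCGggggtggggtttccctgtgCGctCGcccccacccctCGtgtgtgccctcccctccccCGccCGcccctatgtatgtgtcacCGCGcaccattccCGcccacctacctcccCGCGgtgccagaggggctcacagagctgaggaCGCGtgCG
Tnr: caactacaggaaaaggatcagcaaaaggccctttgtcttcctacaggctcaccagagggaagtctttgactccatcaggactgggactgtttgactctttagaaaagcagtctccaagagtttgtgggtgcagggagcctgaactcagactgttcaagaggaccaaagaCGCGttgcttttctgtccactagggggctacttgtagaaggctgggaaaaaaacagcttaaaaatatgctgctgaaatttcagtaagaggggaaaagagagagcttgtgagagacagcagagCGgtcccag

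The first question was whether loss of 1 Arid1b copy goes with altered net genes in vehicle-treated mice. In limma, 0 of the 8 genes reached an adjusted p under 0.05 for HT-Veh versus WT-Veh, where 0.0178% of 16832 genes did. At an unadjusted p under 0.05 the count was again 0 of 8, against 4.88% of all genes. The log2 differences were above 0 for 5 of the 8, as for 51.8% of all genes, and their median was 0.036, beside 0.0062 over all genes. The smallest adjusted p among the members was 0.922.

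Tnr encodes tenascin-R, a glycoprotein made mainly by oligodendrocytes and some interneurons that crosslinks lecticans. Its normalized reads were 2666, 6202, 6279 and 6626 in WT-Veh, 6665, 7292, 6857 and 5548 in HT-Veh, 3758, 5963, 5989 and 4637 in WT-Flx, and 6144, 6955, 6935 and 7489 in HT-Flx. WT-Veh replicate 1 stood far below the other WT-Veh mice. All HT mice but HT-Veh replicate 4 were at 6144 or above, where 3 of the 8 WT mice were. In vehicle-treated mice the HT level was 1.28-fold the WT level (95% confidence interval 0.862 to 1.90), a difference of 0.36 on the log2 scale (SE 0.26), with a limma adjusted p of 0.922. Without WT-Veh replicate 1, the most bulb-rich library, the difference was 0.043, and with the bulb score as a covariate it was 0.28 (adjusted p = 0.286).

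Both link proteins were within the spread of the mice between HT-Veh and WT-Veh. Hapln1, which stabilizes the bond of lecticans to hyaluronan, had 534, 809.9, 722 and 681 normalized reads in WT-Veh, 674, 555, 939.6 and 679 in HT-Veh, 406, 639, 782 and 656 in WT-Flx, and 823, 853, 1047 and 983 in HT-Flx. The HT-Flx mice were the highest group, and the other groups overlapped one another widely. Hapln4, a link protein of the brain that binds brevican at perineuronal nets, had 2278, 3079, 3169 and 3079 normalized reads in WT-Veh, 2973, 2819, 2766 and 2226 in HT-Veh, 2609, 2278, 3009 and 1724 in WT-Flx, and 2805, 3903, 2866 and 2715 in HT-Flx. The lowest mouse of WT-Veh, of WT-Flx and of HT-Veh was in each case a bulb-rich library, and HT-Flx replicate 2 was the highest of all. The log2 differences between HT-Veh and WT-Veh were 0.041 (SE 0.17) for Hapln1 and -0.10 (SE 0.12) for Hapln4. That of Hapln4 was -0.21 without WT-Veh replicate 1 and -0.013 without HT-Veh replicate 4.

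Among the lecticans, Ncan had 5918, 7140.3, 6763 and 7496 normalized reads in WT-Veh, 6903, 7054, 7537 and 6362 in HT-Veh, 5931, 6401, 6184 and 6805 in WT-Flx, and 6863, 8710.2, 7622 and 6838 in HT-Flx. Its spread over all 16 mice was narrow, with a highest value 1.47-fold the lowest. Acan, at the other end, had 151, 83.6, 105 and 71.0 normalized reads in WT-Veh, 75.9, 92.4, 98.6 and 105 in HT-Veh, 79.8, 99.96, 56.6 and 185 in WT-Flx, and 71.9, 149, 66.3 and 64.9 in HT-Flx. Its highest value was 3.27-fold the lowest, and both of these mice were in WT-Flx. The log2 differences between HT-Veh and WT-Veh were 0.031 (SE 0.086) for Ncan and -0.091 (SE 0.23) for Acan, so that for Acan the 95% confidence interval ran from 0.657-fold to 1.34-fold.

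Bcan had 6458, 5778, 6158 and 5712 normalized reads in WT-Veh, 5397, 5724, 5797 and 5885 in HT-Veh, 6437, 5028, 5286 and 6186 in WT-Flx, and 5915, 4942, 6026 and 5049 in HT-Flx. It varied least of the 8 genes, with a highest value 1.31-fold the lowest. Vcan, which is expressed in oligodendrocyte precursors and at nodes of Ranvier as well as in nets, had 579.7, 761, 895 and 782 normalized reads in WT-Veh, 671, 837, 855 and 822 in HT-Veh, 543, 829, 877 and 703 in WT-Flx, and 1372, 1026, 732 and 672 in HT-Flx. The HT-Flx mice covered both the highest Vcan value of all and a value near the lowest of HT-Veh. Ptprz1, whose secreted form phosphacan binds tenascin-R, had 6449, 8350.2, 8335 and 7919.6 normalized reads in WT-Veh, 7829.6, 8417, 9914 and 7828 in HT-Veh, 5779, 9007, 8761 and 9545 in WT-Flx, and 9329, 7605, 9081 and 7461.5 in HT-Flx. All 4 groups overlapped for each of these 3 genes. Between HT-Veh and WT-Veh the log2 differences were -0.079 (SE 0.064) for Bcan, 0.089 (SE 0.13) for Vcan and 0.13 (SE 0.11) for Ptprz1, and without WT-Veh replicate 1 those of Bcan and Ptprz1 were -0.045 and 0.045.

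**Figure D2:**
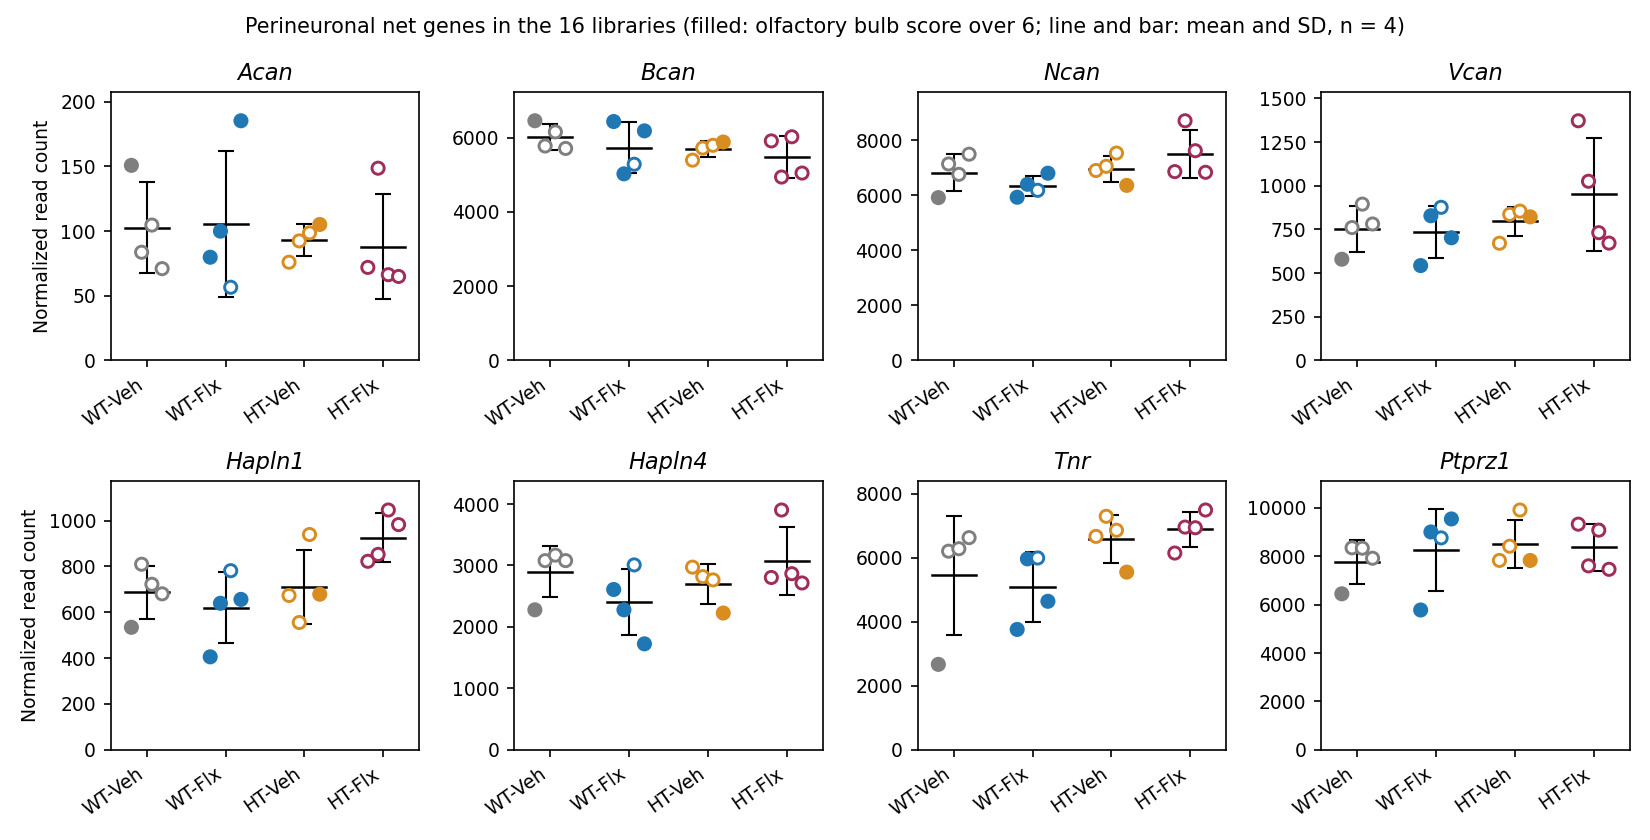
Normalized read counts of the 8 perineuronal net genes in each mouse by group, with the group mean (line) and SD (bar, n = 4). Filled points are the 5 libraries with a bulb score over 6. The lowest Tnr value, 2666, belonged to the WT-Veh library with a bulb score of 9.21, and the 4 HT-Flx mice lay above the 4 WT-Flx mice for Ncan, Hapln1 and Tnr.

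Early fluoxetine was compared with vehicle within each genotype. In HT mice, 0 of the 8 genes passed the adjusted threshold in limma, like 0% of 16814 genes. At an unadjusted p under 0.05 there was 1 of the 8, against 3.07% of all genes. That gene was Hapln1, with 712 ± 162 normalized reads in HT-Veh and 926 ± 106 in HT-Flx (SD, n = 4 each), a difference of 0.40 on the log2 scale (SE 0.14, unadjusted p = 0.0172 and adjusted p = 1.00 in limma). The highest HT-Veh mouse lay above 2 of the 4 HT-Flx mice. With the bulb-rich libraries left out, the difference was 0.38. The log2 differences were above 0 for 5 of the 8, as for 51.2% of all genes. The other 7 genes differed by between -0.16 for Acan and 0.20 for Vcan, and the Vcan difference was 0.0062 without HT-Flx replicate 1. That of Acan was -0.44 without HT-Flx replicate 2 and -0.049 without HT-Flx replicate 4.

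In WT mice, 0 of the 8 genes passed in limma, like 0% of 16833 genes, and 0 of the 8 reached an unadjusted p under 0.05, against 4.2% of all genes. The log2 difference was above 0 for 1 of the 8 genes, Ptprz1, against 49.8% of all genes, and the median was -0.059. Hapln4 had the most negative one, at -0.29 (SE 0.17, adjusted p = 1.00), from 2901 ± 418 normalized reads in WT-Veh to 2405 ± 544 in WT-Flx. That difference was -0.10 with the bulb score as a covariate and -0.14 without WT-Flx replicate 4. Tnr, at -0.036 (SE 0.28), turned to 0.27 with the covariate (adjusted p = 0.794) and was -0.35 without WT-Veh replicate 1.

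The comparison of HT-Flx with WT-Flx gave the widest separation. All 8 genes stayed short of the adjusted threshold in limma, where 0.0417% of 16788 genes passed, and 4 of the 8 had an unadjusted p under 0.05, against 10.4% of all genes. Each of the 4 was higher in HT-Flx, as were 5.58% of all genes at that threshold. In 3 of these the groups did not overlap, as for 5.83% of all genes in either direction and 2.7% with HT-Flx higher. Hapln1 was 1.53-fold higher (95% confidence interval 1.17 to 1.99, unadjusted p = 0.00492, adjusted p = 0.335 in limma), and its lowest HT-Flx mouse, at 823, lay above the highest WT-Flx mouse, at 782. Tnr was 1.37-fold higher (1.11 to 1.70, adjusted p = 0.344), with 6144 as its lowest HT-Flx and 5989 as its highest WT-Flx value. Ncan was 1.18-fold higher (1.02 to 1.37, adjusted p = 0.430), and there the gap lay between 6805 and 6838. Hapln4, with overlapping groups, differed by 0.37 on the log2 scale (SE 0.17, adjusted p = 0.470), and by 0.22 without WT-Flx replicate 4. Without WT-Flx replicate 1, the log2 difference of Hapln1 went from 0.61 to 0.42 and that of Tnr from 0.46 to 0.32. That of Ncan went from 0.24 to 0.17 without HT-Flx replicate 2. The log2 difference was above 0 for 6 of the 8 genes, against 51.6% of all genes, and its median was 0.29, beside 0.0081 over all genes.

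These groups also differed in the bulb score, which was from 4.58 to 8.76 in the 4 WT-Flx mice and from 3.55 to 4.43 in the 4 HT-Flx mice. Of the 10 bulb markers, 8 were tested in this comparison, and all 8 had an unadjusted p under 0.05 and were lower in HT-Flx, with 0 past the adjusted threshold and a median log2 difference of -2.67. With the bulb score as a covariate, the log2 differences were 0.40 for Hapln1, 0.27 for Tnr, 0.32 for Ncan and -0.10 for Hapln4, each with an adjusted p of 1.00. As the scores of the groups did not overlap, this fit can hardly tell group and score apart. No conclusion is drawn from its p-values. Leaving out the bulb-rich libraries kept WT-Flx replicate 3 alone in its group, assumed to vary like the others, and gave 0.24 for Hapln1, 0.20 for Tnr, 0.27 for Ncan and 0.014 for Hapln4. With all 4 groups and the covariate in the fit, the Tnr difference was -0.012, while those of Hapln1, Ncan and Hapln4 kept their sign.

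**Figure D3:**
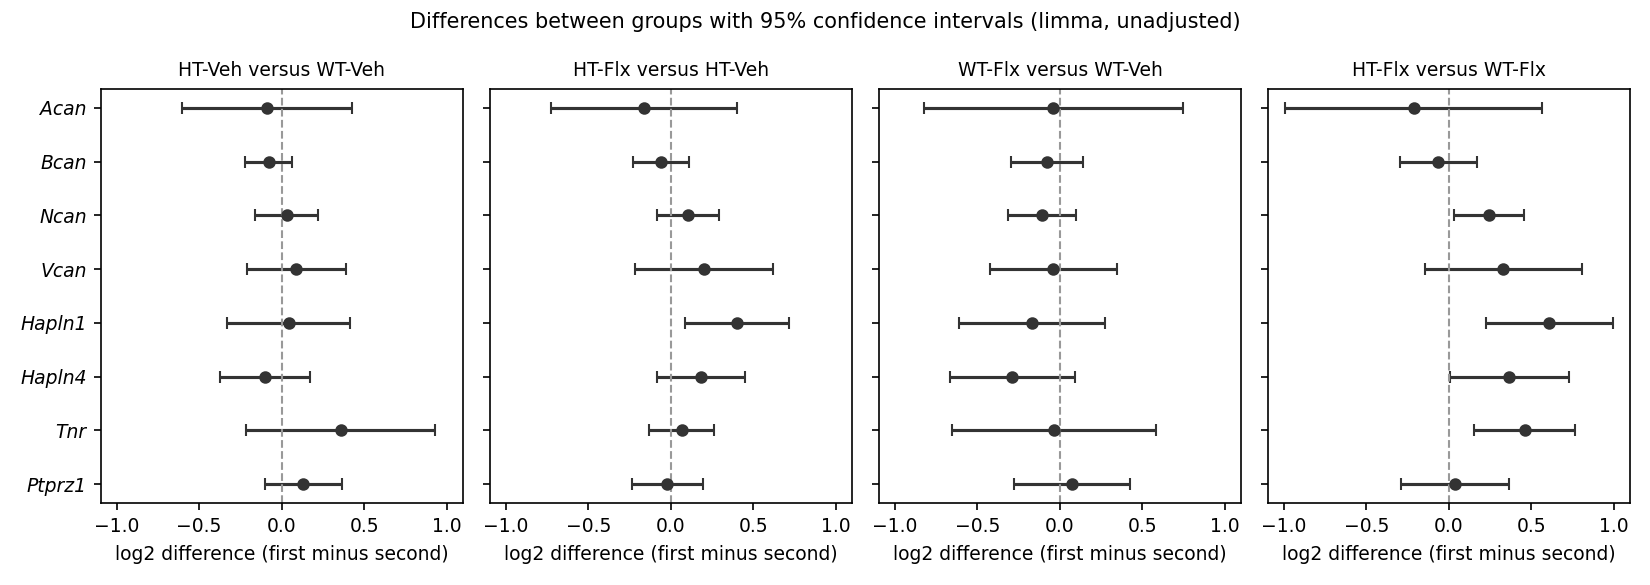
Log2 differences of the 8 genes in the 4 comparisons of group pairs, with unadjusted 95% confidence intervals from limma. For HT-Flx versus WT-Flx the intervals of Ncan, Hapln1, Hapln4 and Tnr lay above 0, and Hapln1 did so also for HT-Flx versus HT-Veh; no adjusted p was under 0.05.

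Over both treatments, HT was compared with WT in all 16 mice. Again 0 of the 8 genes passed in limma, where 0.0569% of 17567 genes did. At an unadjusted p under 0.05 there were 2 of the 8, against 11.7% of all genes, and both were higher in HT, as were 6.34% of all genes at that threshold. The log2 difference was above 0 for 6 of the 8, against 51.1% of all genes. Those 2 were Tnr, at 6736 normalized reads on average in HT and 5265 in WT, a log2 difference of 0.41 (SE 0.16, adjusted p = 0.387), and Hapln1, at 819 and 654, a difference of 0.33 (SE 0.13, adjusted p = 0.390). With the bulb score as a covariate they were 0.14 and 0.22, and without the 5 bulb-rich libraries 0.16 and 0.089. Without WT-Veh replicate 1 alone, that of Tnr was 0.25. Acan went from -0.15 to 0.17 with the covariate, so its direction was not stable.

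Fluoxetine over both genotypes took 0 of the 8 past the threshold in limma, like 0% of 17567 genes, and 0 of the 8 to an unadjusted p under 0.05, against 3.23% of all genes. The differences lay between -0.10 for Acan and 0.11 for Hapln1 on the log2 scale. For the interaction, that is, the fluoxetine difference in HT minus that in WT, 0 of the 8 passed, like 0% of all genes, and 1 reached an unadjusted p under 0.05, against 4.29% of all genes. That was Hapln1, at 0.57 (SE 0.26, unadjusted p = 0.0455, adjusted p = 0.998 in limma), with Hapln4 next at 0.47 (SE 0.23, unadjusted p = 0.0532 in limma). With the bulb score as a covariate these were 0.41 and 0.20, and that of Hapln1 was 0.38 without WT-Flx replicate 1.

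Within groups, 3 of the 8 genes followed the bulb score in a limma fit over all 16 mice with the 4 group means in the model, where 13.1% of 17567 genes passed the adjusted threshold, 5.26% with a rise and 7.84% with a fall. At an unadjusted p under 0.05 the count was also 3, against 28.3% of all genes. Tnr fell by 0.17 on the log2 scale per unit of score (SE 0.031, adjusted p = 0.00251), and Hapln4 fell by 0.11 (SE 0.025, adjusted p = 0.00829). Acan rose by 0.20 (SE 0.059, adjusted p = 0.0346). The slopes of the other 5 did not pass and were -0.066 for Hapln1, -0.059 for Vcan, -0.042 for Ptprz1, -0.032 for Ncan and 0.024 for Bcan. Without WT-Veh replicate 1, which had the highest score, 0 of the 8 genes passed: the slopes were -0.083 for Tnr (adjusted p = 0.415), -0.14 for Hapln4 (adjusted p = 0.107) and 0.24 for Acan (adjusted p = 0.267), and genes called in the whole table fell from 2301 to 150. The Acan call was lost in 4 further leave-outs, without WT-Veh replicate 2 or 4 or WT-Flx replicate 3 or 4. Within the 11 libraries with a score of at most 6, 0 of the 8 genes and 0 of 17118 genes passed, with 1057 genes at an unadjusted p under 0.05, and the slope of Hapln4 was 0.12.

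**Figure D4:**
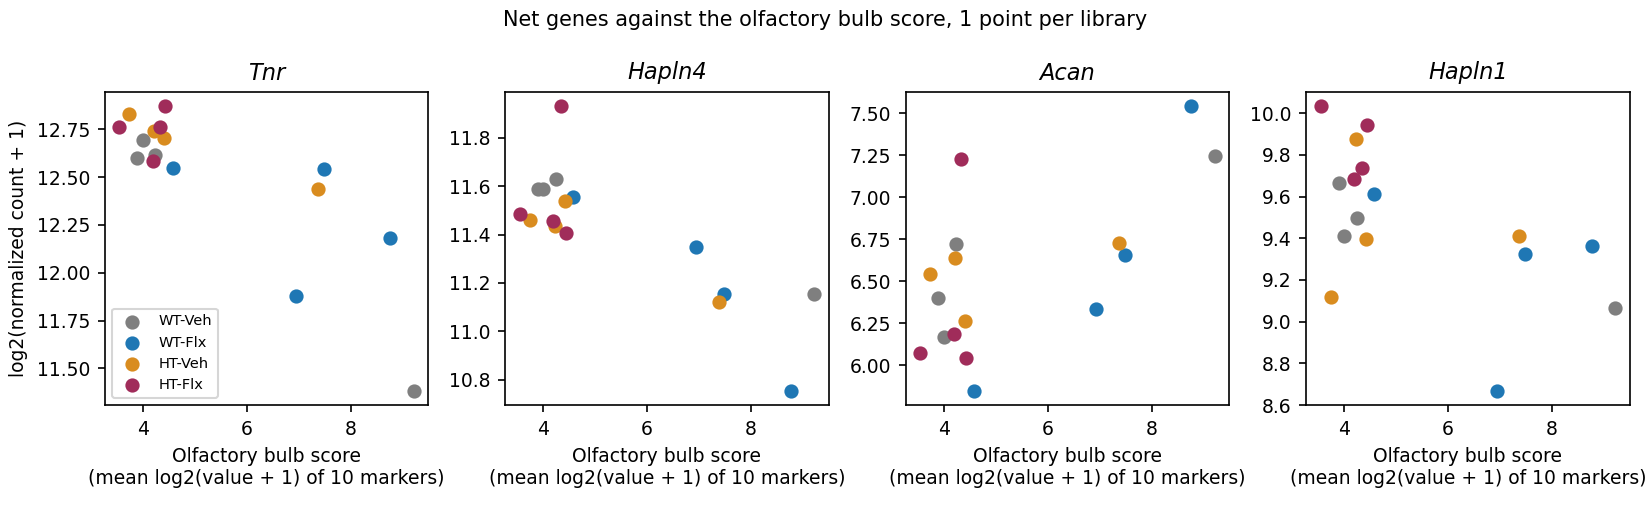
Log2(normalized count + 1) of Tnr, Hapln4, Acan and Hapln1 against the bulb score, with 1 point per library coloured by group. The 5 libraries with a score over 6 lay to the right, low for Tnr and Hapln4, and WT-Veh replicate 1, with a score of 9.21, had the lowest Tnr value.

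Marker lists of cell types were followed along the same score, where 13.1% of all genes passed. Of 9 parvalbumin interneuron markers, 6 fell and 1 rose with it. Pvalb itself, which encodes the calcium-binding protein that names these cells, fell by 0.12 per unit (SE 0.026, adjusted p = 0.00585 in limma), and without WT-Veh replicate 1 its slope was -0.16 (adjusted p = 0.0583) and 1 of the 9 markers passed, Gad1, an enzyme of GABA synthesis, which rose. Among other cortical cell types, 3 of 6 glutamatergic neuron markers, 1 of 8 astrocyte markers, 3 of 6 microglia markers and 1 of 7 vascular and meningeal markers fell, and 1 of 7 oligodendrocyte precursor markers rose. Of 6 mature oligodendrocyte markers 0 passed, with all 6 slopes below 0 and a median of -0.048. Without WT-Veh replicate 1, only the slope of the mature marker Mog stayed below 0, at -0.029. Without WT-Veh replicate 1, 0 markers of each of these lists passed. Of 5 neuroblast markers, 3 rose, and all 10 bulb markers rose, as the score was built from them. In the 7 group comparisons, 0 markers of any of these lists passed the adjusted threshold in limma. At an unadjusted p under 0.05 the largest count was 8, for the bulb markers in HT-Flx versus WT-Flx. Of the 9 parvalbumin markers, 3 reached that unadjusted level in HT-Veh versus WT-Veh, against 4.88% of all genes. The count was 4 for HT-Flx versus WT-Flx (10.4% of all genes) and 3 for WT-Flx versus WT-Veh (4.2%). It was 3 for the interaction (4.29%), 3 for genotype (11.7%), 2 for fluoxetine (3.23%) and 0 for HT-Flx versus HT-Veh (3.07%). Other lists had such counts too: 3 of 7 oligodendrocyte precursor markers and 3 of 5 neuroblast markers for genotype, and 3 of 7 precursor markers in HT-Flx versus WT-Flx. The parvalbumin markers were mixed in direction. Of the 9, 2 were above 0 in HT-Veh versus WT-Veh, 1 in WT-Flx versus WT-Veh, 6 in HT-Flx versus WT-Flx and 4 for genotype. Pvalb had 1048 ± 153 normalized reads in WT-Veh beside 751 ± 136 in HT-Veh, and 691 ± 162 in WT-Flx beside 712 ± 93.5 in HT-Flx (SD, n = 4 each). Its log2 difference was -0.49 between HT-Veh and WT-Veh (SE 0.15, unadjusted p = 0.0088, adjusted p = 0.899 in limma). Between WT-Flx and WT-Veh it was -0.62 (SE 0.18, unadjusted p = 0.0053, adjusted p = 1.00 in limma). Neither Pvalb difference was recomputed with the bulb score in the fit. The parvalbumin markers summed to 23310.5 to 31025 normalized reads in WT-Veh and 19418 to 26407 in WT-Flx, and to 20373 to 22327 in HT-Veh and 19962 to 23534 in HT-Flx. The highest sums of WT-Veh and WT-Flx were those of replicate 1 and replicate 4, the most bulb-rich library of each group. In these libraries the mean log2(value + 1) of the same 9 markers was the lowest of its group, at 10.07 and 9.98. The sums thus do not follow the other markers there. The part of the parvalbumin markers in the levels of the net genes was not tested.

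The wider net machinery was followed in 61 genes in 7 lists: other link proteins and net-associated proteins, hyaluronan enzymes, chondroitin sulfate chain synthesis, sulfotransferases, matrix proteases, their inhibitors, and receptors. Chst13, Mmp3 and Otx2 were not among the rows used here, and from 53 to 58 genes were tested per comparison. In each of the 7 group comparisons 0 of them passed in limma, with 5, 3, 0, 2, 5, 5 and 1 at an unadjusted p under 0.05 in the order in which the comparisons are given above. The shares of all genes at that threshold were 4.88%, 3.07%, 4.2%, 10.4%, 11.7%, 3.23% and 4.29% in the same order. The listed genes were above the share of all genes in HT-Veh versus WT-Veh (5 of 54), HT-Flx versus HT-Veh (3 of 55) and fluoxetine over both genotypes (5 of 58). They were below it in the other comparisons, among them 2 of 55 in HT-Flx versus WT-Flx and 5 of 58 for genotype. For genotype over both treatments, the gene with the smallest p of each list had the following log2 differences. Chst11, a sulfotransferase that acts on chondroitin chains, was at 0.20 (SE 0.081, adjusted p = 0.389), with 1313 ± 153 normalized reads in WT-Veh and 1516 ± 44.9 in HT-Veh. Xylt1, the xylosyltransferase that starts the sugar chain, was at 0.25 (SE 0.11, adjusted p = 0.403), and Rtn4rl1, a Nogo receptor family member that binds chondroitin sulfate, was at 0.26 (SE 0.11, adjusted p = 0.404). Adamts15, a protease that cleaves lecticans, was the only one of the 7 below 0, at -0.36 (SE 0.15, adjusted p = 0.394). Hyal1, a hyaluronidase, was at 0.30, Tnxb, a tenascin, at 0.19, and Timp2, a metalloprotease inhibitor, at 0.13. None of these 7 differences was recomputed with the bulb score in the fit.

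With the bulb score, 10 of 58 of these genes passed, a share near the 13.1% of all genes. Among the 6 that fell, Nfasc and Nrcam, cell adhesion proteins of the axon initial segment and nodes, fell by 0.17 (SE 0.027, adjusted p = 0.000846) and 0.064 per unit, and Ptprs, a receptor for chondroitin sulfate, by 0.087. Cemip, which takes part in hyaluronan breakdown, fell by 0.14, Tnxb by 0.11 and Xylt1 by 0.091. The 4 that rose were the lectican-cleaving protease gene Adamts5 (0.21, SE 0.053, adjusted p = 0.0136), Mmp14 (0.13), Crtac1 (0.12) and the sulfotransferase gene Ust (0.081). Without WT-Veh replicate 1, 0 of the 58 genes passed, with the slope of each of these 10 in the same direction and that of Nfasc at -0.10 (adjusted p = 0.229).

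The 8 genes did not vary as 1 block. After the group means and the slope on the bulb score had been taken out, the highest correlations between members over the 16 mice were r = 0.79 for Acan with Ncan and r = 0.72 for Hapln1 with Ptprz1, and the lowest were r = -0.60 for Bcan with Tnr and r = -0.57 for Hapln4 with Ptprz1. Without that adjustment, Acan and Ncan had r = 0.068. HT-Flx replicate 2 had the highest Ncan value of all mice, 8710, and the highest Acan value of HT-Flx, 149. The weight of this mouse in the correlation of Acan with Ncan was not tested. The 16 points share 4 groups and a common normalization. The genes most like each member by the same measure, among 12543 genes with a mean of at least 100, were Bms1 (r = 0.899) and Tcf7l1 (0.888) for Acan, Begain (0.962) and Jtb (0.919) for Bcan, Jarid2 (0.866) and Entpd7 (0.853) for Ncan, and Gatm (0.975) and Padi2 (0.953) for Vcan. For the link proteins they were Crebrf (0.940) and Frmd6 (0.901) for Hapln1 and Plxdc1 (0.933) and Rgs4 (0.920) for Hapln4. Tnr was most like Syn3 (0.965) and Ash1l (0.957), and Ptprz1 like Slc4a4 (0.979) and Dock1 (0.973). Each of these genes was picked as the highest of 12543 correlations over 16 mice, and such a pick can be high among unrelated genes too. Whether they vary with the member beyond this selection was not tested. Without the adjustment, their correlations ran from r = 0.336 for Bms1 with Acan to r = 0.972 for Syn3 with Tnr.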

How the data were processed

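Poly-A RNA of 16 mice was made into stranded libraries (TruSeq Stranded mRNA) by the authors, quantified with Salmon 1.1.0 on GRCm38, summarised to genes with tximport and normalized in DESeq2 1.30.1. The deposited signal is thus a normalized estimated read count; no sample had a common step between its values, so reads and depth are unknown, and no interval for counting error is given. Replicates had not been pooled. All 16 columns were used.

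Groups and replicate numbers came from sample titles. Comparisons used limma 3.58.1 in R 4.3.3 (lmFit, eBayes with trend) on log2(value + 1), over genes with at least 10 in at least 4 samples of the fit, on the 8 samples compared, or on all 16 for genotype, fluoxetine, interaction and bulb slope. P-values were two-sided and adjusted by Benjamini-Hochberg over all genes tested (threshold 0.05). A difference on this scale understates that of low genes such as Acan, and the p-values measure the spread between mice that may share dams. Code was tested on simulated data.

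Members, gene lists and markers were chosen with earlier results of these data known. Named genes were the 8 members, Arid1b, Pvalb, listed net genes past the threshold in any fit, the smallest p per list for genotype, and the 2 genes most like each member; Gad1 was named after its values were seen. Alternatives were pseudocounts of 0.1 and 8, no filter, common upper quartile, quantile normalization, the bulb score as a covariate, leaving out samples with a score over 6, sample quality weights, a replicate block, all 4 groups in the fit, and leaving out each mouse. A fit of all 4 groups with the covariate, and a slope within scores of at most 6, were added after seeing the data.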

Additional observations from a re-analysis of the deposited data

Results flagged for a closer look

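Dixon's test at the 95% level was applied to each of the 8 genes in each of the 4 groups. Of these 32 sets, 4 held a mouse far from the other 3, where chance gives about 1 in 20 for a single set. The sets share mice and are not independent, so the count cannot be weighed against that rate. In WT-Veh, replicate 1 was low for both Tnr (2666 normalized reads, beside 6202 to 6626 in the other 3 mice) and Hapln4 (2278, beside 3079 to 3169); this library had the highest bulb score, 9.21. In HT-Flx, replicate 2 was high for both Acan (149, beside 64.9 to 71.9) and Hapln4 (3903, beside 2715 to 2866); its bulb score, 4.34, was within the range of the other HT-Flx mice.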

How the results depend on the processing

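Each of the 56 differences (8 genes, 7 comparisons) was recomputed under every alternative, 1208 values in all: 0 passed the threshold, the smallest adjusted p was 0.137 (limma, Hapln1, HT-Flx versus WT-Flx, with 1 mouse left out), 101 changed sign, and 29 of the 56 differences never did. Pseudocounts of 0.1 and 8 and no filter changed no sign, and neither did the replicate block, which changed no call. The replicate numbers were not taken as a pairing. Of 24 same-numbered pairs across groups, 9 had a correlation of deviations over 0.1 (range -0.23 to 0.31). Of the 24, 12 correlated best with their own number, more than an even draw among the mice of a group would give. Whether the numbers mark a pairing was not tested further. With the replicate block, genes called in the whole table went from 3 to 0 for HT-Veh versus WT-Veh, from 7 to 5 for HT-Flx versus WT-Flx and from 10 to 17 for genotype over both treatments.

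Signs changed as follows, on the log2 scale. A common upper quartile gave -0.00093 for the Bcan interaction, and quantile normalization -0.014 for the same and -0.036 for Ptprz1 in HT-Flx versus WT-Flx. The bulb score as a covariate gave -0.0098 for Tnr in HT-Flx versus HT-Veh, 0.096 for Vcan and 0.27 for Tnr in WT-Flx versus WT-Veh, 0.88 for Acan, 0.0052 for Bcan and -0.10 for Hapln4 in HT-Flx versus WT-Flx, 0.17 for Acan and -0.045 for Hapln4 over genotype, 0.012 for Ncan over fluoxetine, and 0.36 for Acan and -0.30 for Tnr in the interaction. Leaving out scores over 6 gave 0.051 for Acan, -0.049 for Vcan and -0.060 for Hapln1 in HT-Veh versus WT-Veh, -0.015 for Tnr in HT-Flx versus HT-Veh, 0.11 for Vcan and 0.087 for Hapln1 in WT-Flx versus WT-Veh, 0.53 for Acan, 0.047 for Bcan and -0.073 for Ptprz1 in HT-Flx versus WT-Flx, 0.29 for Acan and -0.055 for Hapln4 over genotype, 0.022 for Hapln4 and -0.051 for Tnr over fluoxetine, and 0.48 for Acan in the interaction. Sample quality weights gave 0.054 for Acan, -0.0062 for Ncan, -0.0035 for Vcan and -0.12 for Hapln1 in HT-Veh versus WT-Veh, 0.077 for Acan in WT-Flx versus WT-Veh, 0.026 for Bcan and -0.048 for Ptprz1 in HT-Flx versus WT-Flx, and -0.075 for Tnr over fluoxetine. All 4 groups with the covariate gave -0.070 for Tnr in HT-Flx versus HT-Veh, 0.057 for Vcan and 0.23 for Tnr in WT-Flx versus WT-Veh, and 0.34 for Acan, 0.0044 for Bcan, -0.012 for Tnr and -0.083 for Ptprz1 in HT-Flx versus WT-Flx. The cause of these changes was not tested.

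Leaving out each mouse in turn gave ranges across 0 for HT-Veh versus WT-Veh in Acan (-0.25 to 0.11), Ncan (-0.036 to 0.078), Vcan (-0.032 to 0.18) and Hapln1 (-0.10 to 0.15), with WT-Veh replicate 1 setting 1 end for Acan, Ncan and Vcan. For HT-Flx versus HT-Veh these were Tnr (-0.015 to 0.12) and Ptprz1 (-0.077 to 0.054). For WT-Flx versus WT-Veh they were Acan (-0.35 to 0.21), Vcan (-0.16 to 0.10), Hapln1 (-0.29 to 0.022), Tnr (-0.35 to 0.10) and Ptprz1 (-0.014 to 0.24). HT-Flx versus WT-Flx had Acan (-0.49 to 0.10) and Ptprz1 (-0.13 to 0.11), and genotype over both treatments had Acan (-0.29 to 0.0055). Fluoxetine over both genotypes had Acan (-0.26 to 0.024), Ncan (-0.038 to 0.022), Vcan (-0.016 to 0.16), Hapln4 (-0.11 to 0.022), Tnr (-0.14 to 0.083) and Ptprz1 (-0.018 to 0.11), and the interaction had Acan (-0.40 to 0.19), Bcan (-0.044 to 0.075) and Tnr (-0.035 to 0.42). The number of genes following the bulb score ran from 0, without WT-Veh replicate 1, to 3. Within scores of at most 6 it was 0, and the slopes of Bcan (-0.19), Vcan (0.10), Hapln1 (0.025) and Hapln4 (0.12) changed sign.

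With the median coding transcript length, levels per kilobase were 3257 for Bcan, 1197 for Ptprz1, 2281 for Tnr, 353 for Vcan and 19.5 for Acan. Genes called in the whole table moved with the setting as well, from 3 to 21 with the covariate and to 18 with quality weights for HT-Veh versus WT-Veh, from 7 to 0 with the covariate and to 14 with weights for HT-Flx versus WT-Flx, from 0 to 2 with the covariate and to 12 with weights for WT-Flx versus WT-Veh, and from 10 to 5 with the covariate and to 31 with weights for genotype over both treatments. With 4 mice per group and depth unknown, the 95% confidence intervals of all 8 genes in HT-Veh versus WT-Veh covered differences of either sign.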
